A study of Bos taurus with 138 samples.

Results

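Cyclic AMP control of meiotic arrest was followed through 10 mRNAs, chosen by gene name for their place in the pathway, with earlier results of these data known. They were the receptors GPR3 and GPR12, the adenylyl cyclases ADCY3 and ADCY9, and the phosphodiesterases PDE3A and PDE4D. The others were the catalytic subunits PRKACA and PRKACB of protein kinase A, and its regulatory subunits PRKAR1A and PRKAR2A. The members are 10 of the 16706 gene symbols in the table, and all 10 were among the 14612 genes that passed the filter on low counts. The study compared mRNA on ribosomes with whole-cell mRNA in bovine oocytes and embryos. The 6 groups were immature oocytes at the germinal vesicle (GV) stage, taken from slaughterhouse ovaries, oocytes matured in vitro to metaphase II (MII), and embryos at the 2-cell, 8-cell, morula and blastocyst stages, fertilized in vitro with semen of a Holstein bull and grown in culture. All groups shared a short cycloheximide exposure, which holds ribosomes on mRNA, and removal of the zona pellucida, and cumulus cells were stripped from the oocytes. For each stage, 2 sucrose gradients (A and B) were cut into 10 fractions, F1 to F10, and 3 whole-cell libraries (A, B and C), called transcriptomes below, were made from smaller pools. The series describes the gradients as biological duplicates and the transcriptomes as biological triplicates from the same batch of a stage. The p-values therefore measure the spread between pools, and where stages were collected apart, collection and stage cannot be told apart.

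A fully grown oocyte stays arrested in meiotic prophase while its cyclic AMP is high. GPR3 and GPR12 signal without an added ligand through the stimulatory G protein to adenylyl cyclase, cyclic AMP binds the regulatory subunits of protein kinase A and frees the catalytic subunits, and kinase A holds the maturation-promoting kinase inactive. PDE3A, the main oocyte phosphodiesterase, degrades cyclic AMP, is itself restrained by cyclic GMP from the follicle cells, and lets the germinal vesicle break down when that restraint ends.

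Levels are CPM, counts scaled to a common library total with TMM factors, so each is a share of its library and not an amount per oocyte. In bulk samples, fewer cells of a type and less RNA per cell cannot be told apart. Polysome-occupied mRNA was the sum of F8, F9 and F10 of a gradient, which gave 12 pools with totals of 22543737 to 39380638 counts, and the 18 transcriptomes held 3269386 to 11812567 counts. The 10 oocyte markers (among them GDF9, BMP15 and ZP3) summed to 18690 to 21910 CPM in GV transcriptomes and to 34.4 to 141 CPM in those of blastocysts. The 7 measured blastocyst markers (among them CDX2, GATA3 and KRT18) summed to 60.3 to 72.0 CPM and to 4888 to 5584 CPM in the same groups. Markers of cumulus and granulosa cells, of which 11 passed the filter, summed to 131 to 142 CPM in GV, 431 to 627 CPM in MII, 203 to 231 CPM in 2-cell and 258 to 1101 CPM in 8-cell transcriptomes. In morula and blastocyst transcriptomes they summed to 41.7 to 60.7 CPM, and in the pools to 87.6 to 400 CPM in MII and 83.8 to 171 CPM at the 8-cell stage. The genes that define granulosa cells were unequal in MII. In its transcriptomes FSHR was at 0.101 to 0.357 CPM, AMH at 0.119 to 0.710 CPM, CYP19A1 at 3.21 to 5.23 CPM and INHA at 7.38 to 14.1 CPM. In the MII pools FSHR was at 0, AMH at 9.94 to 27.2 CPM, CYP19A1 at 1.79 to 3.03 CPM and INHA at 30.3 to 265 CPM. TNFAIP6 and HAS2, genes of the expanding cumulus, were at 82.0 to 147 CPM and 169 to 187 CPM in MII transcriptomes. FSHR reached 1.83 to 8.06 CPM and VCAN, a matrix proteoglycan, 112 to 883 CPM in 8-cell transcriptomes. In the same libraries TNFAIP6 was at 23.9 to 34.7 CPM and PTX3 at 11.8 to 16.6 CPM. By contrast, CYP19A1 was at 0.783 to 1.285 CPM, AMH at 0.174 to 1.03 CPM and HAS2 at 9.23 to 44.9 CPM, against 98.5 to 110 CPM of HAS2 in 2-cell transcriptomes. The markers thus did not move together. The part of such cells in the MII and 8-cell values below was not tested.

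None of the 10 mRNAs was called changed on maturation, and the most calls between stages of the transcriptome came at the step from 2-cell to 8-cell. That step also had the most calls over all genes. A call below is an adjusted p under 0.05 in edgeR's quasi-likelihood test, with adjustment over all genes. From GV to MII, 0 of 10 members were called in the transcriptome, where 18.6% of all genes were called, and 0 of 10 in the polysome pools, where 5.43% were. An unadjusted p under 0.05 was reached there by 2 members in the transcriptome and 1 in the polysome pools. DESeq2 called PRKACB and PRKAR1A in the transcriptome and PRKAR1A in the pools, while the likelihood ratio test of edgeR and a scaling by DESeq2's size factors each called PRKACB in the transcriptome. Without MII pool B, PRKAR1A was called in the pools (log2 1.17, adjusted p = 0.0356, against 0.85 and 0.0799 with it). From MII to 2-cell, 0 members were called in the transcriptome, where 13.1% of all genes were. There 1 member reached an unadjusted p under 0.05, and DESeq2 and the likelihood ratio test called PRKACA. In the pools 1 member fell, where 5.21% of all genes fell and 8.65% were called in either direction. From 2-cell to 8-cell, 6 of 10 members fell and 0 rose in the transcriptome, where 24.6% of all genes fell and 52.3% were called in either direction. In the polysome pools 4 fell and 0 rose, where 25.7% of all genes fell and 47.3% were called in either direction. The median log2 fold change over the 10 members at that step was -2.28 in the transcriptome and -2.16 in the pools (-2.24 with members at 3 counts or fewer set to their bound), beside 0.03 and -0.26 over all genes.

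Later steps moved fewer members in the transcriptome. From 8-cell to morula 1 member fell there, where 8.04% of all genes fell and 15.4% were called in either direction. From morula to blastocyst 1 rose, where 10.8% of all genes rose and 23.2% were called in either direction. In the polysome pools, 2 rose and 3 fell from 8-cell to morula, beside 37.0% of all genes called in either direction, and 2 rose and 1 fell from morula to blastocyst, beside 14.2%.

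**Figure D1:**
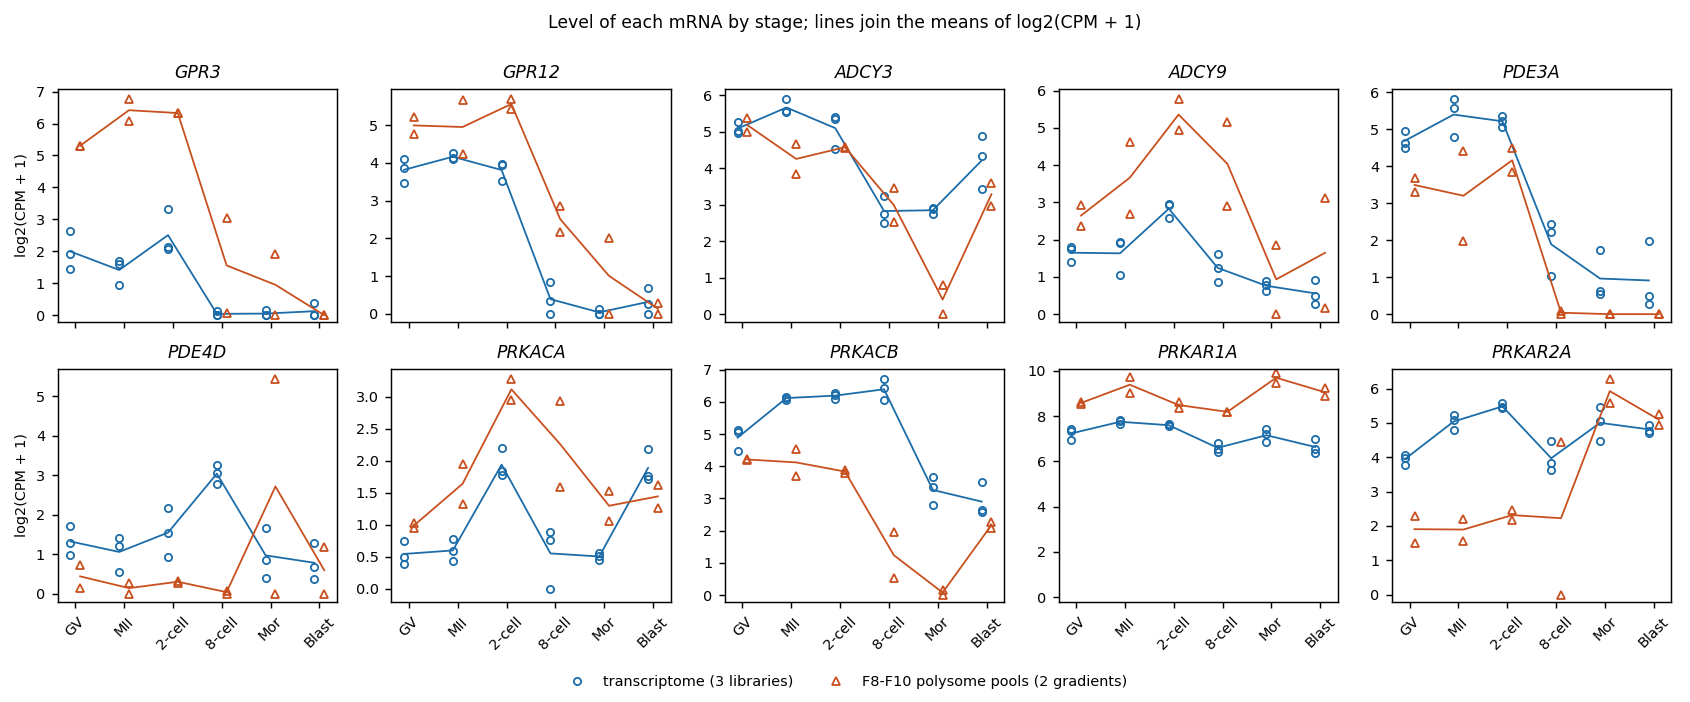
Level of the 10 mRNAs as log2(CPM + 1) at each stage, circles for the 3 transcriptomes and triangles for the 2 F8-F10 polysome pools, with lines through the means. GPR3, GPR12 and PDE3A drop from 2-cell to 8-cell in both kinds of library, while PRKAR1A stays at 81.5 CPM or more in every library.

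GPR3, a constitutively active receptor that keeps cyclic AMP high in oocytes, was sparse in the transcriptome and higher in polysome pools. In transcriptomes A, B and C it stood at 5.16, 2.77 and 1.72 CPM in GV, 0.916, 2.03 and 2.26 CPM in MII and 3.19, 3.36 and 9.03 CPM in 2-cell embryos. In polysome pools A and B it stood at 38.6 and 38.5 CPM in GV, 107 and 66.5 CPM in MII and 79.2 and 79.5 CPM in 2-cell embryos. At these 3 stages both pools lay above all 3 transcriptomes. The log2 fold change of polysomes over transcriptome was 3.57 ± 1.17 (SE) in GV (adjusted p = 0.0176), 5.64 ± 1.27 in MII (adjusted p = 0.000632) and 3.93 ± 1.17 in 2-cell embryos (adjusted p = 0.00765). The GV call was lost without GV pool B (adjusted p = 0.0511) or without transcriptome B (0.0614) or C (0.0715), at log2 differences of 3.28 to 3.58. The stage steps of GPR3 before the 2-cell stage were not called. On the scale of the second fit, which sets polysomes against monosomes (F3 to F5), GPR3 in GV was at 70.6 and 69.6 CPM in monosome pools and 35.7 and 35.4 CPM in polysome pools. Its monosome pools held 65.5 and 43.3 CPM in MII and 46.01 and 45.95 CPM in 2-cell embryos, and polysomes and monosomes were not called different at these stages.

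At the 8-cell stage GPR3 had 1 count over the 3 transcriptomes. This was a ratio of 178 to the 2-cell level, with a counting interval of 32.0 to 7038 (adjusted p = 0.000909). In the pools it fell to 0.041 CPM in gradient A and 7.32 CPM in gradient B, a log2 fold change of -4.42 ± 1.41 from the 2-cell stage (adjusted p = 0.0134). The pools thus differed between gradients. On the scale of single fractions, with TMM factors over all 120 of them, the highest fractions of gradient B were F7, F5 and F8 (50.6, 24.9 and 22.6 CPM), while in gradient A they were F3 and F4 (51.4 and 43.5 CPM), with at most 0.118 CPM in F5 to F10. With F7 counted among the polysomes, the fall missed the threshold (adjusted p = 0.051). The 8-cell excess of polysomes over transcriptome (a ratio of 126, counting interval 22.7 to 4989, adjusted p = 0.00178) rested on gradient B, without which the log2 difference was 0.41 (adjusted p = 0.912). In morulae GPR3 was 0 CPM in pool A and 2.73 CPM in pool B, and in blastocysts 0 in both pools, at least 21.2-fold lower (adjusted p = 0.0258). That last call was lost without either blastocyst pool (adjusted p = 0.115 and 0.14), and without morula pool B both stages were at 0. The morula excess over the transcriptome (a ratio of 42.6, interval 7.65 to 1682, adjusted p = 0.0164) rested on the same pool, without which the log2 difference was -2.48 (adjusted p = 0.563), and was also lost without transcriptome A (0.0575) or B (0.0595). The intervals, and the bound, which sets a group with 0 counts to a floor of 3, cover counting error only. Where leaving out a library leaves a group at 0 counts, or a change is set against such a group, the fitted log2 value depends on edgeR's prior count and is no bound on the change.

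GPR12, the related receptor, also fell from 2-cell to 8-cell in both kinds of library. Over GV, MII and 2-cell transcriptomes it lay between 10.2 and 18.1 CPM, and over the 6 pools between 17.99 and 50.4 CPM, with no call between polysomes and transcriptome at these stages (log2 fold changes of 0.99 to 1.81). From 2-cell to 8-cell it fell in transcriptomes from 10.4, 14.5 and 14.7 CPM to 0, 0.269 and 0.783 CPM, a log2 fold change of -5.21 ± 1.13 (adjusted p = 0.000518). In the pools it fell from 50.4 and 42.3 CPM to 6.28 and 3.47 CPM, by 3.25 ± 1.195 on the log2 scale (adjusted p = 0.0288). The pool call was lost without either 2-cell pool (adjusted p = 0.0747 and 0.0542) or 8-cell pool B (0.0926), at log2 changes of -3.37 to -2.88. At the 8-cell stage polysomes exceeded the transcriptome by 3.77 ± 1.13 on the log2 scale (adjusted p = 0.00646). The 8-cell monosome pools of the second fit held 5.555 and 19.2 CPM, beside 5.71 and 3.09 CPM of polysomes. That excess was thus not shown to be particular to polysomes. Monosomes lay above polysomes in GV (59.4 and 60.6 against 24.3 and 33.15 CPM) and below them in 2-cell embryos (30.7 and 32.1 against 43.9 and 36.4 CPM). The difference was called at no stage. In morulae the pools held 0 and 3.05 CPM against 1 count over 3 transcriptomes (a ratio of 47.5, interval 8.53 to 1877, adjusted p = 0.00531), and that call rested on pool B (log2 -2.47, adjusted p = 0.448 without it).

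ADCY3 and ADCY9 are membrane adenylyl cyclases, which make cyclic AMP from ATP. ADCY3 was at 22.2 to 58.0 CPM in GV, MII and 2-cell transcriptomes, and 8-cell transcriptomes held 8.40, 5.65 and 4.70 CPM, a fall of 2.46 ± 0.61 on the log2 scale from the 2-cell stage (adjusted p = 0.00168). Its pools were at 40.7 and 30.5 CPM in GV, 13.4 and 24.3 CPM in MII and 22.5 and 23.1 CPM in 2-cell embryos, and the difference from the transcriptome was not called at these stages. In MII both pools lay below all 3 transcriptomes (log2 -1.405, adjusted p = 0.0752). That difference was called by the likelihood ratio test (0.0207), DESeq2 (0.00221), with DESeq2's size factors (0.0391) and with F7 among the polysomes (0.0219). Monosome pools of the second fit held 47.9 and 47.5 CPM in MII, against 11.8 and 21.9 CPM of polysomes. In 2-cell embryos they held 34.8 and 30.3 CPM against 19.6 and 19.9 CPM. The quasi-likelihood test called neither difference, and in GV the pools overlapped. The pool fall from 2-cell to 8-cell (log2 -1.64, adjusted p = 0.0632) was called by the likelihood ratio test (0.0145) and DESeq2 (0.00291), among others. In morulae the transcriptomes held 6.53, 5.72 and 6.36 CPM, but the pools only 0 and 0.748 CPM. That was 3.94 ± 0.79 lower on the log2 scale than the transcriptome (adjusted p = 0.000232) and 4.18 ± 0.82 lower than the 8-cell pools (adjusted p = 0.000429). Blastocyst pools were back at 11.1 and 6.81 CPM, a rise of 4.47 ± 0.83 (adjusted p = 0.00115). These morula calls held without each library in turn. For ADCY3, 81.2% of values over all libraries were not whole numbers, against 11.7% of the whole table.

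ADCY9 was sparse in transcriptomes, at 1.07 to 2.84 CPM in GV and MII and 5.04 to 6.77 CPM in 2-cell embryos, and no step of the transcriptome was called. Its pools stood at 6.63 and 4.13 CPM in GV, 23.9 and 5.47 CPM in MII, 29.9 and 53.6 CPM in 2-cell and 6.52 and 34.8 CPM in 8-cell embryos. Both pools lay above all 3 transcriptomes at these 4 stages, and the difference was called in MII (log2 2.72 ± 1.14, adjusted p = 0.0453), 2-cell (2.76 ± 1.13, adjusted p = 0.0445) and 8-cell embryos (3.85 ± 1.18, adjusted p = 0.00777). The 2-cell call was lost without any 1 of its 5 libraries (adjusted p = 0.0623 to 0.183). The MII call was lost without pool A (log2 1.24, adjusted p = 0.468) or without any 1 transcriptome (0.0795 to 0.139). With DESeq2's size factors both calls were lost (0.0556 in MII and 0.0547 in 2-cell embryos). The 8-cell call was lost without pool B (log2 2.19, adjusted p = 0.128). In the second fit the monosome pools lay above both polysome pools in GV (19.2 and 22.5 CPM against 6.12 and 3.80 CPM) and 8-cell embryos (42.0 and 87.9 CPM against 5.94 and 30.95 CPM), with neither difference called (adjusted p = 0.961 and 0.596). From 8-cell to morula the pools fell to 0 and 2.65 CPM (log2 -3.94 ± 1.38, adjusted p = 0.0281), a call lost without 8-cell pool B (0.186) or morula pool A (0.125).

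PDE3A, the phosphodiesterase whose activity ends the arrest, was lower in polysomes than in the transcriptome, with the difference called from the 8-cell stage on. Transcriptomes A, B and C held 29.99, 23.6 and 21.7 CPM in GV, 27.0, 46.9 and 55.3 CPM in MII and 40.3, 36.5 and 32.4 CPM in 2-cell embryos. Pools A and B held 11.9 and 8.89 CPM in GV, 20.4 and 2.97 CPM in MII and 21.4 and 13.4 CPM in 2-cell embryos. All pools lay below all transcriptomes of their stage, but the quasi-likelihood test called none of the 3 differences (log2 -1.27 ± 0.87, -1.88 ± 0.89 and -1.07 ± 0.86, adjusted p = 0.255, 0.0762 and 0.311). DESeq2, the likelihood ratio test and the fit without MII pool A (log2 -3.91, adjusted p = 0.0148) called the MII difference. From GV to MII the log2 change was 0.78 with a 95% interval of -0.78 to 2.34 in the transcriptome and 0.17 with an interval of -1.72 to 2.07 in the pools. In the second fit, GV monosome pools held 7.264 and 12.25 CPM, beside 10.97 and 8.177 CPM of polysomes. MII monosome pools held 10.35 and 8.616 CPM, beside 18.02 and 2.675 CPM. In 2-cell embryos both polysome pools, at 18.61 and 11.52 CPM, lay above the monosome pools, at 10.48 and 10.9 CPM. None of these differences was called. The lower level up to the 2-cell stage was thus not shown to be particular to polysomes.

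From 2-cell to 8-cell, PDE3A fell in transcriptomes to 1.03, 4.39 and 3.65 CPM (log2 -3.59 ± 0.83, adjusted p = 0.00114). In the pools it went to 0 and 0.0542 CPM, 2 counts in all, a ratio of 532 with a counting interval of 147 to 4396 (adjusted p = 2.54e-05). The 8-cell pools were lower than the transcriptome (a ratio of 92.6, interval 25.6 to 765, adjusted p = 0.000236). The mRNA was still found in lighter fractions. The 8-cell monosome pools, F3 to F5, held 3.30 and 15.6 CPM, 322 times the polysome level (interval 89.1 to 2657, adjusted p = 0.0237). F7 of gradient B held 16.5 CPM and F7 of gradient A held 0. With F7 counted among the polysomes, neither 8-cell difference was called (adjusted p = 0.595 against the transcriptome and 0.414 against monosomes). The monosome difference was also lost without 8-cell polysome pool A (adjusted p = 0.109) or monosome pool B (0.0721). In morulae and blastocysts PDE3A had 0 counts in all 4 pools, while the transcriptomes held 0.447 to 2.33 CPM and 0.207 to 2.94 CPM. By their means this was at least 20.5-fold more in morulae (adjusted p = 0.000633) and at least 18.3-fold more in blastocysts (adjusted p = 0.00158). Transcriptome A weighed most in both means: A, B and C held 25, 5 and 5 counts in morulae and 10, 1 and 2 in blastocysts. Of PDE3A's values, 39.9% were not whole numbers.

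PDE4D, a phosphodiesterase specific for cyclic AMP, had low values throughout and 1 library that stood apart. In transcriptomes it lay between 0.458 and 3.50 CPM up to the 2-cell stage, at 7.37, 5.92 and 8.61 CPM in 8-cell embryos and at 0.323 to 2.15 CPM in morulae, with no step called. The 8-cell pools held 0 and 0.0542 CPM, 2 counts in all, below the transcriptome (a ratio of 224, interval 61.9 to 1846, adjusted p = 0.00621). The 8-cell monosome pools were also low, at 0.0635 and 0.159 CPM in the second fit, and were not called different from polysomes. On the scale of single fractions, the highest 8-cell value was 0.135 CPM in gradient A and 0.405 CPM in gradient B. PDE4D was thus scarce throughout the 8-cell gradients, and the ratio does not show a deficit particular to polysomes. In morulae pool A held 42.1 CPM and pool B held 0, and 86.2 CPM in F9 of gradient A, on the scale of single fractions, was the only value above 0 among F8 to F10 of both gradients. The rise of the pools from 8-cell to morula (a ratio of 645, interval 179 to 5327, adjusted p = 0.00523) and the morula excess over the transcriptome (log2 4.26 ± 1.61, adjusted p = 0.0305) both rested on that library. Without morula pool A the excess turned to a deficit (log2 -7.33, adjusted p = 0.027) and the rise was gone (log2 -2.41, adjusted p = 0.477). The excess was also lost without morula transcriptome B (0.0876) or C (0.1) and with scaling by library totals alone (0.0524).

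**Figure D2:**
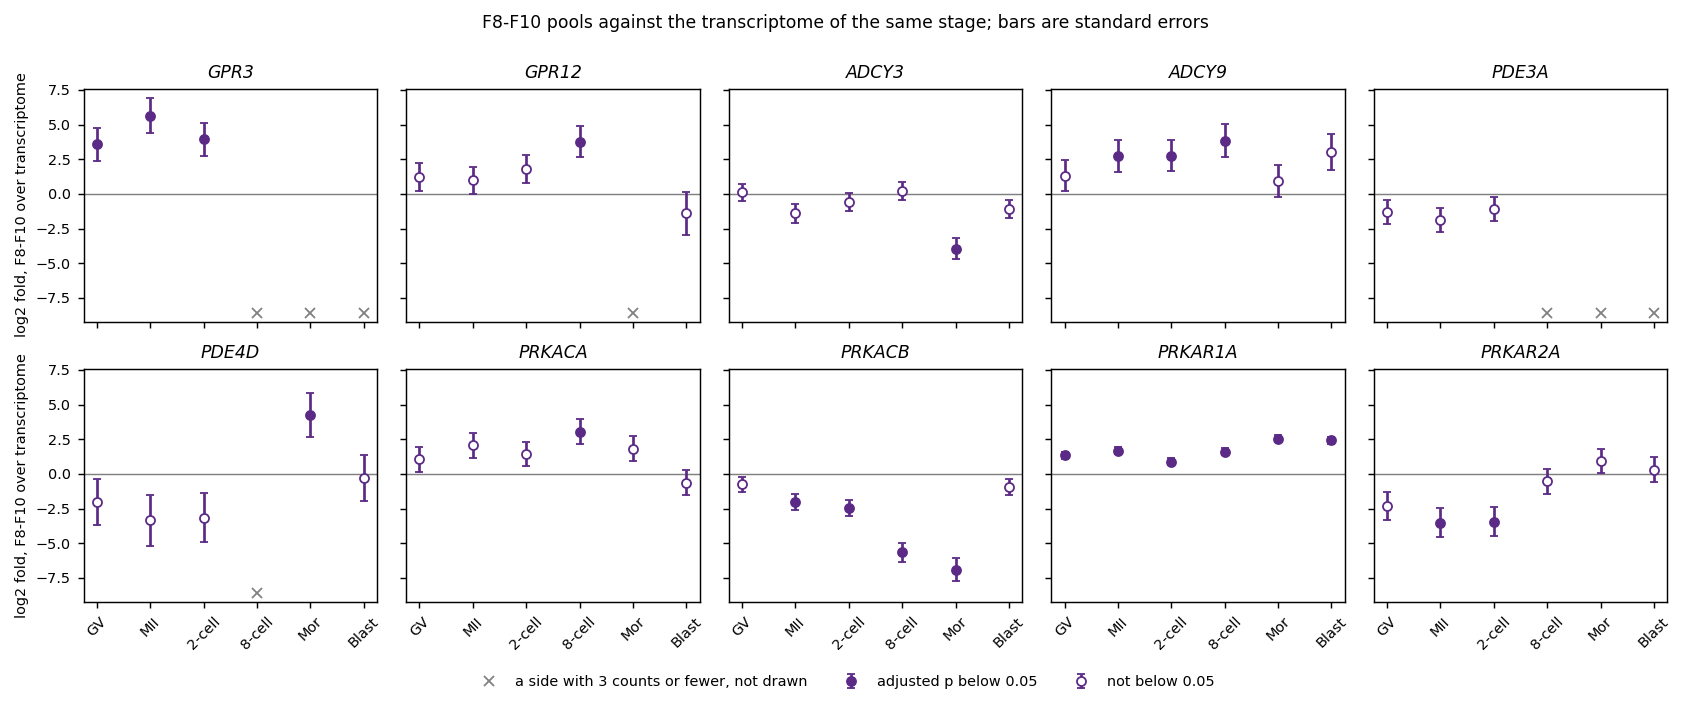
Log2 fold change of F8-F10 pools over the transcriptome of the same stage for each mRNA, with standard errors, filled where the adjusted p was under 0.05. Crosses at the foot mark stages where 1 side held 3 counts or fewer, whose fitted value is not drawn. PRKAR1A is above 0 at all 6 stages and GPR3 from GV to 2-cell. PRKACB is below 0 at all 6 stages, with calls from MII to morula.

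The comparison of polysomes with transcriptome separated the members in both directions. In GV 2 members were higher in polysomes and 0 lower, where 22.2% of all genes were higher and 39.8% were called in either direction. In MII 3 were higher and 2 lower, beside 57.5% of all genes called, and in 2-cell embryos 3 higher and 2 lower, beside 51.0%. At the 8-cell stage 5 were higher and 3 lower (59.1% of all genes called), in morulae 4 higher and 3 lower (51.7%), and in blastocysts 1 higher and 1 lower (40.1%). The members' shares, 2 to 8 of 10, lay on either side of the background shares called in either direction.

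PRKACB, which encodes the beta isoform of the catalytic subunit, was at 21.2 to 103 CPM in transcriptomes up to the 8-cell stage and lower in the polysome pools. Transcriptomes A, B and C held 32.4, 21.2 and 34.0 CPM in GV, 70.3, 68.8 and 66.3 CPM in MII, 73.6, 76.0 and 67.2 CPM in 2-cell, 84.4, 103 and 65.6 CPM in 8-cell embryos, 5.88, 9.21 and 11.6 CPM in morulae and 10.3, 4.97 and 5.20 CPM in blastocysts. Pools A and B held 17.9 and 17.2, 22.1 and 12.1, 12.9 and 13.6, 0.451 and 2.85, 0 and 0.115, and 3.22 and 3.83 CPM at the same stages. The MII transcriptomes all lay above the GV ones (log2 1.23 ± 0.49, 95% interval 0.22 to 2.23), but the adjusted p was 0.083. MII, 2-cell and 8-cell transcriptomes overlapped, and the steps between them were not called. In the second fit the MII monosome pools held 8.82 and 6.31 CPM, below both polysome pools (19.55 and 10.9 CPM). The 8-cell monosome pools held 18.6 and 12.7 CPM, above both polysome pools (0.411 and 2.53 CPM). Monosomes also lay above polysomes in GV, 2-cell embryos and morulae. The quasi-likelihood test called the difference at no stage.

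Polysomes held less PRKACB than the transcriptome in MII (log2 -2.00 ± 0.58, adjusted p = 0.00506), 2-cell embryos (-2.44 ± 0.59, adjusted p = 0.00137), 8-cell embryos (-5.65 ± 0.71, adjusted p = 4.28e-07) and morulae (-6.90 ± 0.82, adjusted p = 3.59e-07). In MII the call was lost without pool B (adjusted p = 0.0698). From 2-cell to 8-cell the pools fell by 2.99 ± 0.64 on the log2 scale (adjusted p = 0.000597) while the transcriptome change was not called (log2 0.22, 95% interval -0.77 to 1.21). From 8-cell to morula both fell, by 3.24 ± 0.53 in the transcriptome (adjusted p = 0.00016) and 4.49 ± 0.80 in the pools (adjusted p = 0.000164). In blastocysts the pools rose again (log2 5.57 ± 0.81, adjusted p = 0.000128), and the pools of that stage and the transcriptomes, at log2 -0.94 ± 0.57, were no longer called different (adjusted p = 0.192). Each of these changes between stages held without any 1 library.

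PRKACA, the alpha isoform, was sparse, between 0.308 and 0.714 CPM in GV and MII transcriptomes. It stood at 2.43, 2.56 and 3.61 CPM in 2-cell embryos, at 0.857, 0 and 0.696 CPM in 8-cell embryos (log2 -2.45 ± 0.84, adjusted p = 0.0178) and at 0.358 to 0.467 CPM in morulae. Blastocysts held 3.53, 2.28 and 2.40 CPM, a rise of 2.69 ± 0.87 (adjusted p = 0.0268). The 2-cell transcriptomes lay above all MII ones, with an adjusted p of 0.0588. The fall was lost without 2-cell transcriptome C (log2 -2.25, adjusted p = 0.0501) or 8-cell transcriptome B (-1.87, 0.0523), and the rise without any 1 morula transcriptome (log2 2.58 to 2.77, adjusted p = 0.0693 to 0.0908) or blastocyst transcriptome A (2.47, 0.0714). Its pools were highest in 2-cell embryos, at 6.75 and 8.68 CPM, and no step between pools was called. Polysomes exceeded the transcriptome at the 8-cell stage (6.60 and 2.01 CPM in the pools, log2 3.03 ± 0.90, adjusted p = 0.00614), a call lost without pool A (adjusted p = 0.0936). The 8-cell monosome pools held more, 21.5 and 20.4 CPM against 6.01 and 1.79 CPM of polysomes in the second fit (log2 -2.43 ± 1.04, adjusted p = 0.133, with 0.0427 by the likelihood ratio test and 0.00238 by DESeq2).

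PRKAR1A, the type I regulatory subunit that binds cyclic AMP and holds the catalytic subunits inactive, was higher in polysome pools than in the transcriptome at every stage. Transcriptomes ranged over 122 to 171 CPM in GV, 200 to 222 CPM in MII, 188 to 198 CPM in 2-cell embryos, 84.0 to 112 CPM in 8-cell embryos, 113 to 170 CPM in morulae and 81.5 to 124 CPM in blastocysts. Pools A and B held 394 and 368, 851 and 522, 327 and 390, 291 and 289, 706 and 966, and 597 and 468 CPM. Both pools lay above all 3 transcriptomes at all 6 stages. Within the gradients, polysomes were called above monosomes only in MII, morulae and blastocysts, as given below. At the 8-cell stage both polysome pools, at 265 and 257 CPM in the second fit, lay below both monosome pools (527 and 456 CPM). The log2 excess was 1.34 ± 0.25 in GV (adjusted p = 0.000144), 1.68 ± 0.25 in MII (4.1e-06), 0.90 ± 0.25 in 2-cell (0.00451), 1.59 ± 0.25 at the 8-cell stage (1.14e-05), 2.55 ± 0.26 in the morula (3.13e-08) and 2.42 ± 0.26 in the blastocyst (9.73e-08). Without 2-cell pool B the 2-cell call was lost (adjusted p = 0.0579).

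The transcriptome of PRKAR1A fell from 2-cell to 8-cell by 0.999 ± 0.23 on the log2 scale (adjusted p = 0.000921). In the pools it was 0.94 ± 0.28 lower in 2-cell embryos than in MII (adjusted p = 0.0374), a call lost without MII pool A (0.351) or either 2-cell pool (0.107 and 0.22), with scaling by library totals alone (0.238) and with F7 among the polysomes (0.085), and it rose from 8-cell to morula by 1.53 ± 0.28 (adjusted p = 0.000268). The 8-cell step of its pools was not called (log2 -0.31, 95% interval -0.88 to 0.27).

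PRKAR2A, a type II regulatory subunit, was called lower in polysomes than in the transcriptome in MII and 2-cell embryos and at no later stage. A change in that difference was not shown: the polysome change minus the transcriptome change was called at no step. Its transcriptomes held 12.7 to 15.9 CPM in GV, 27.0 to 36.6 CPM in MII and 42.0 to 46.4 CPM in 2-cell embryos, and its pools 1.86 to 4.55 CPM over these 3 stages. All 6 pools lay below all 9 transcriptomes. In the second fit the monosome pools of these stages held 4.06 to 10.8 CPM, above both polysome pools of their stage, with no call. The difference was called in MII (log2 -3.51 ± 1.06, adjusted p = 0.00705) and 2-cell embryos (-3.44 ± 1.06, adjusted p = 0.00883), and in GV it was -2.32 ± 0.998 (adjusted p = 0.0672). The MII call was lost without pool A (0.0714) and the 2-cell call without pool A (0.0739) or B (0.0527). The 8-cell pools differed, with 0 CPM in A and 20.9 CPM in B, next to 11.3 to 21.1 CPM in the transcriptomes. Without pool A the step from 2-cell to 8-cell was a rise (log2 2.38, adjusted p = 0.00062), and without pool B a fall (log2 -9.13, adjusted p = 1.04e-06), against 1.38 and 0.272 with both. In morulae the pools held 76.1 and 47.0 CPM and in blastocysts 29.9 and 37.1 CPM, next to 21.3 to 43.5 and 25.2 to 29.9 CPM in the transcriptomes, with no call at either stage. No step between stages was called. The pool change from 8-cell to morula (log2 2.55 ± 1.048, adjusted p = 0.058) was called by the likelihood ratio test (0.0292) and DESeq2 (0.0213), with no filter (0.0499), with F7 among the polysomes (0.0471) and without either 8-cell pool (adjusted p = 0.038 without A and 1.31e-08 without B).

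The polysome change was set against the transcriptome change of the same step in the same fit. From GV to MII and from MII to 2-cell, 0 members were called (10.6% and 1.81% of all genes were), with 0 and 1 members at an unadjusted p under 0.05 and 0 called at either step by DESeq2 or the likelihood ratio test. From 2-cell to 8-cell 2 members, PRKACB and PDE3A, were lower in polysomes than their transcriptome change would give. Of all genes 8.72% were lower and 12.2% were called in either direction. PRKACB was lower by 3.21 ± 0.78 on the log2 scale (adjusted p = 0.00936). From 8-cell to morula ADCY3 was lower, by 4.17 ± 0.97 (adjusted p = 0.0066), and PDE4D was higher (log2 11.87, adjusted p = 0.00732), beside 12.5% of all genes called. The PDE4D value fell to log2 0.31 (adjusted p = 0.894) without morula pool A. From morula to blastocyst PRKACB was higher by 5.96 ± 0.94 (adjusted p = 0.000333), where 6.04% of all genes were higher and 12.3% were called in either direction. PDE3A was lower by 5.25 ± 1.45 (adjusted p = 0.0208). With F7 counted among the polysomes its value was 0.25 (adjusted p = 0.991), and the call was also lost without 2-cell pool A (adjusted p = 0.0578) or 8-cell pool A (0.0741).

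Within the gradients, PRKAR1A was the member called different between polysomes and monosomes at the most stages. It also had the most counts of the members, 440239 over all libraries, beside 44180 for GPR3. Polysome and monosome pools of PRKACB and PRKAR2A also lay apart at several stages, without a call. The monosome pools of PRKAR1A, F3 to F5, held 344 and 364 CPM in GV, 162 and 181 CPM in MII, 364 and 308 CPM in 2-cell, 527 and 456 CPM in 8-cell embryos, 182 and 208 CPM in morulae and 213 and 142.5 CPM in blastocysts. On the scale of that second fit, the polysome pools held 751 and 470.5 CPM in MII, 713 and 849 CPM in morulae and 577 and 460.5 CPM in blastocysts, above both monosome pools each time. Polysomes exceeded monosomes in MII (log2 1.83 ± 0.35, adjusted p = 0.0237), morulae (2.00 ± 0.35, adjusted p = 0.0127) and blastocysts (1.55 ± 0.34, adjusted p = 0.0336). In GV (log2 -0.01, 95% interval -0.72 to 0.69) and 2-cell embryos (-0.11, interval -0.82 to 0.59) the pools were close, and at the 8-cell stage the value was -0.91 ± 0.34 (adjusted p = 0.0897). The MII call was lost without polysome pool A (0.215) or either monosome pool (0.385 and 0.245), with the gradient as a block (0.0639) and with scaling by library totals alone (0.0516), and the blastocyst call without polysome pool A (0.191) or B (0.0849) or monosome pool B (0.196). PRKAR1A was the 1 member called higher at each of these 3 stages, where 0.262%, 0.699% and 0.800% of all genes were higher. In either direction 0.437%, 1.59% and 1.43% of all genes were called. PDE3A was the 1 member called lower at the 8-cell stage, where 4.80% of all genes were lower and 9.35% were called in either direction. At an unadjusted p under 0.05 there were 4 members at the 8-cell stage and 6 in morulae. DESeq2 also called PRKACA, PRKACB and PRKAR1A lower at the 8-cell stage, and in morulae ADCY3, PDE3A and PRKACB lower and GPR3 and PDE4D higher, and in blastocysts PDE4D higher. In GV and 2-cell gradients 0 members were called by this fit (0.498% and 0% of all genes), 0 reached an unadjusted p under 0.05, and 0 were called by DESeq2 or the likelihood ratio test.

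**Figure D3:**
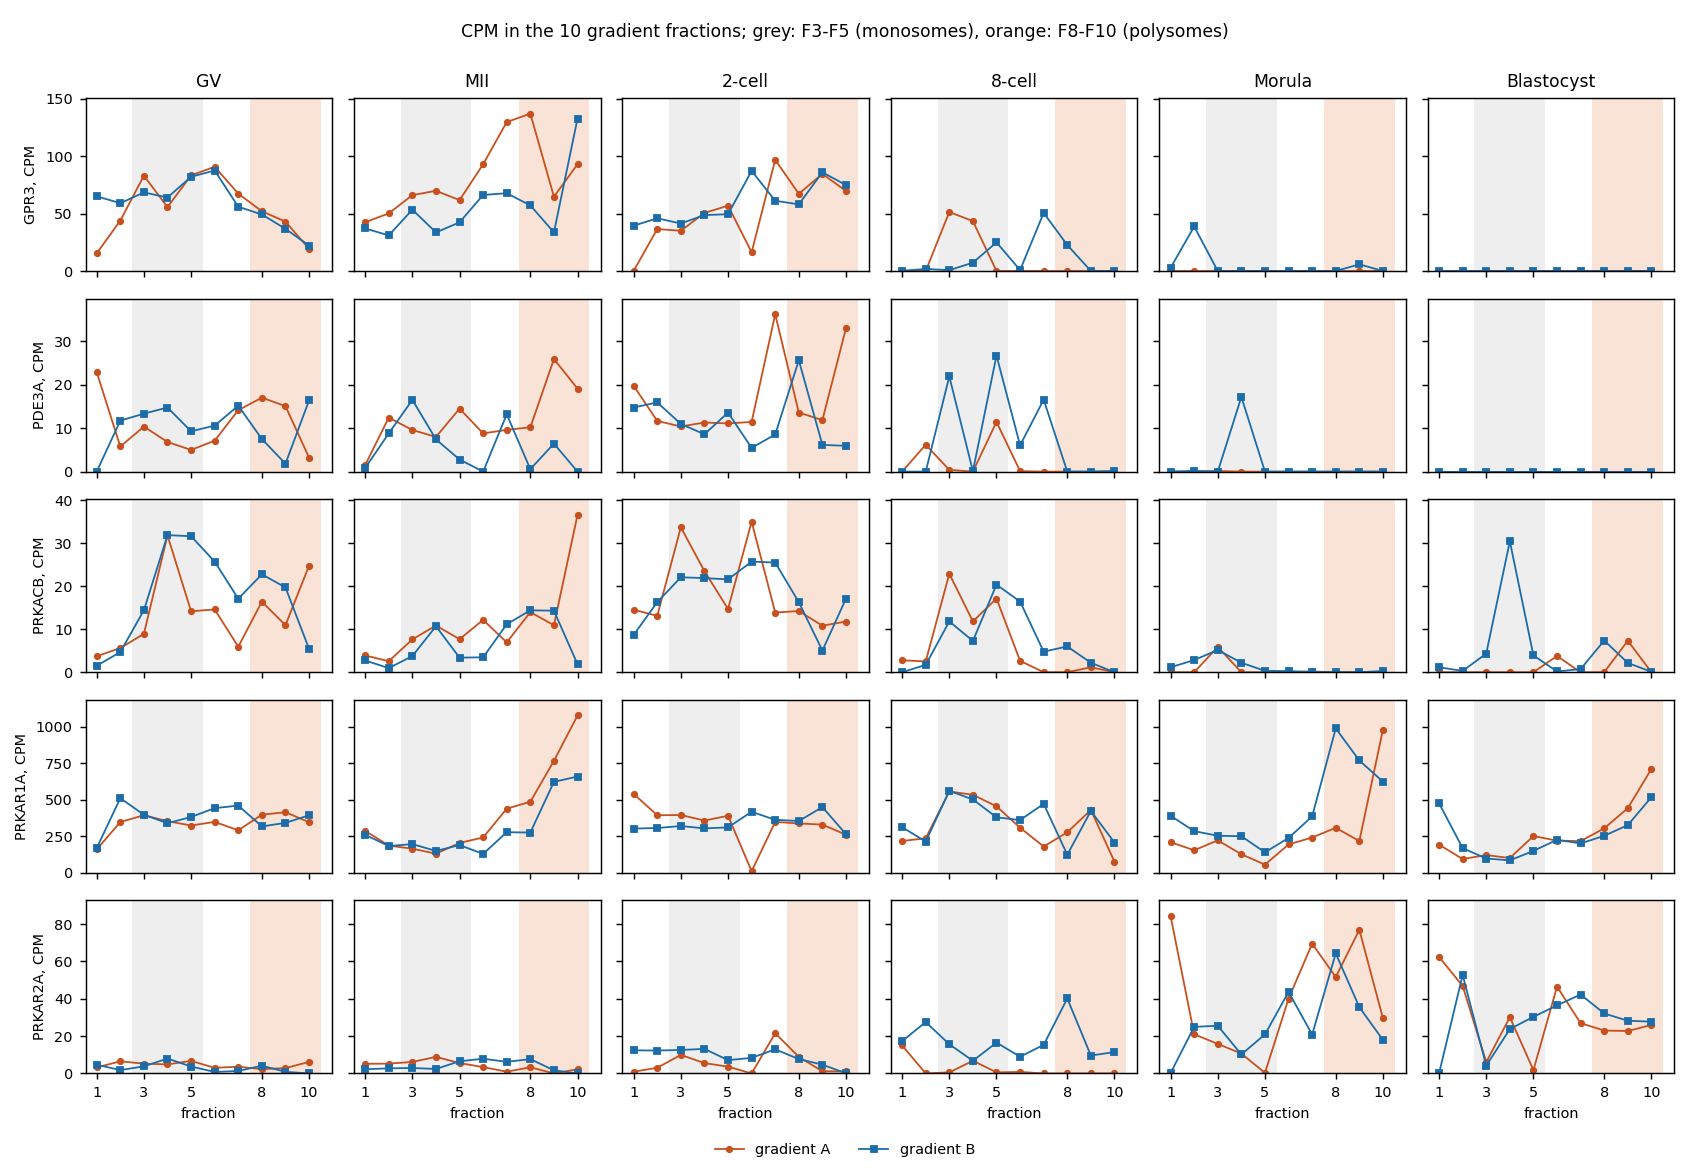
CPM of 5 members in fractions F1 to F10 of gradients A (circles) and B (squares) at each stage, with TMM factors over the 120 fraction libraries, and with F3-F5 shaded grey and F8-F10 orange. PRKAR1A is mostly higher in the orange than in the grey band of MII, morula and blastocyst gradients and about level in GV, PDE3A at the 8-cell stage lies mainly in F2 to F7, and GPR3 and PDE3A are at 0 in all blastocyst fractions.

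Across the single fractions, in CPM with TMM factors over the 120 fractions, PRKAR1A in MII rose from 165 and 197 CPM in F3 to 1077 and 659 CPM in F10 of gradients A and B. In GV it was 394 and 398 CPM in F3 and 347 and 394 CPM in F10. The late gradients were patchy. Of the 200 values of the 10 members over 20 fractions of a stage, 4.5% were 0 in GV, 8.5% in MII and 5.5% in 2-cell embryos, but 29.5% at the 8-cell, 50% at the morula and 51% at the blastocyst stage. In blastocyst fractions GPR3 and PDE3A were at 0 in all 20, PDE4D in 18 and GPR12 in 17, whereas PRKAR1A was detected in all 120 fractions of the study. F6 of 2-cell gradient A held 11.2 CPM of PRKAR1A next to 390.5 and 348.5 CPM in F5 and F7, and it is in none of the pools compared.

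Few genes in the rest of the pathway were called on maturation, beside the 18.6% of all genes called in the transcriptome. Of the receptors and G proteins listed, 9 were tested, and from GV to MII 2 rose in the transcriptome: GNAS, the stimulatory alpha subunit, at 14.0 to 22.7 CPM in GV and 37.6 to 50.1 CPM in MII (log2 1.37 ± 0.36, adjusted p = 0.00857), and GNB2, a beta subunit, by 1.12 ± 0.30 (adjusted p = 0.00913). Of 13 other cyclic AMP phosphodiesterases 1 fell, PDE1B, a calmodulin-dependent enzyme, by 2.19 ± 0.55 (adjusted p = 0.00597). Of 12 A-kinase anchors, which tether kinase A, AKAP11 rose by 1.14 ± 0.30 (adjusted p = 0.00899) and AKAP1 fell by 1.71 ± 0.60 (adjusted p = 0.0457). Of 13 genes of the cyclic GMP arm and gap junctions 1 fell, IMPDH2, an enzyme of guanine nucleotide synthesis, by 0.85 ± 0.23 (adjusted p = 0.0109). None of the 6 other adenylyl cyclases, 5 other kinase A subunits and inhibitors or 14 kinase A targets and effectors was called in the transcriptome. In the polysome pools, where only 5.43% of all genes were called, the quasi-likelihood test called 0 genes of these 7 lists.

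At the step from 2-cell to 8-cell more of them moved, beside 52.3% of all genes called in the transcriptome and 47.3% in the pools. In the transcriptome 7 of the 14 kinase A targets and effectors fell and 2 rose, 5 of the 13 cyclic GMP and gap junction genes fell and 2 rose, and 3 of the 13 other phosphodiesterases fell and 0 rose. Among the others, 3 of the 12 anchors fell and 2 rose, 2 of the 9 receptors and G proteins fell and 1 rose, 2 of the 6 other cyclases fell, and 1 of the 5 other kinase A genes fell and 2 rose. In the pools 5 of the 14 kinase A targets fell and 1 rose, 6 of the 13 cyclic GMP and gap junction genes fell and 1 rose, and 5 of the 13 other phosphodiesterases fell and 1 rose. There 2 anchors fell and 2 rose, 3 receptors and G proteins fell and 1 rose, 3 other cyclases fell, and 1 other kinase A gene fell and 1 rose.

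The profile of each receptor and enzyme over the 30 libraries can be set beside other genes as a description, since all libraries share the stage steps. The highest Pearson correlations of log2(CPM + 1) with PDE3A over the 14612 genes were those of FBXO43 (0.972), PPARGC1A (0.971) and CCDC62 (0.967). For GPR3 they were PABPC1L (0.973), PRSS53 (0.970) and TRPV6 (0.968), and for PRKACA, with its low counts, TLE5 (0.876), LRCH4 (0.862) and PPARD (0.843). Among the members the highest was between GPR3 and GPR12 (0.838), and PRKACA and PRKACB had -0.330.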

How the data were processed

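The authors sequenced 120 gradient fractions and 18 transcriptomes with a Smart-seq kit, which primes from poly(A) tails, so the values are those of polyadenylated mRNA. Reads per gene were estimated with Salmon (the labels name the build UMD3.1 and the methods a later one, so no coordinates are given), and the authors deposited 1 table of expected counts, not normalized, for 16706 gene symbols and 138 libraries. Of these values 11.7% were not whole. Column names gave each sample. Fractions held 1229382 to 17342859 counts. Of 78 library pairs compared, 0 were identical.

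Counts were rounded to whole numbers, and F8 to F10 (polysomes) and F3 to F5 (monosomes) were summed per gradient. Values of single fractions are CPM with TMM factors over the 120 fractions. Tests were two-sided quasi-likelihood F tests of edgeR 4.0.16 with TMM factors, filterByExpr and Benjamini-Hochberg adjustment over all genes, in a model of 12 polysome pools and 18 transcriptomes (14612 genes) and another of 24 pools (14873 genes). A standard error is the log2 fold change over the root of F, and bounds for groups with 0 counts used a floor of 3 counts over the group. The scripts were tested on simulated data (Python 3.11.15, R 4.3.3). Alternatives were edgeR's likelihood ratio test, which the study's methods name, DESeq2 1.42.0, its size factors, library totals alone, no filter, a replicate block, F7 among the polysomes, a fold above 2, and each library left out.

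All 10 members are named. From 7 further lists at most 2 genes each were named, those with the largest called change from GV to MII, and for PDE3A, GPR3 and PRKACA the 3 genes with the most similar profile. The members and lists were chosen with earlier results of these data known. F3 to F5 and F8 to F10 of a letter come from the same gradient by label. Otherwise equal letters marked no shared deviation: the correlations of deviations from group means ran from -0.20 to 0.07 between transcriptomes, and 0 of 15 passed 0.1. F1, F2 and F6 entered no test.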

Additional observations from a re-analysis of the deposited data

Results flagged for a closer look

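The polysome change and the transcriptome change of the same stage step differed by an interaction test for 5 values, given as polysome change minus transcriptome change on the log2 scale. From 2-cell to 8-cell the difference was -5.25 for PDE3A and -3.21 for PRKACB. From 8-cell to morula it was -4.17 for ADCY3 and 11.87 for PDE4D. From morula to blastocyst it was 5.96 for PRKACB. The PRKACB and ADCY3 values kept their calls without each library in turn, the PDE4D value lost its call without morula pool A (0.31, adjusted p = 0.894), and the PDE3A value lost its call with F7 among the polysomes (0.25, adjusted p = 0.991).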

How the results depend on the processing

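Of 270 member values, 59 were called. Of these, 48 stayed called under every alternative other than leaving out a library, 34 without each library in turn, and 31 under both. Calls over all steps numbered 8 in the transcriptome (7 to 14 with a library left out), 13 in the polysome pools (11 to 17), 29 between polysomes and transcriptome (25 to 33), 5 for the polysome change minus the transcriptome change (4 to 9) and 4 between polysomes and monosomes (2 to 7). The likelihood ratio test gave 8 and DESeq2 9 in place of 5, and 10 and 13 in place of 4. The cause was not tested.

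With the replicate block, the counts were 8, 12, 28, 5 and 3. It took away the calls of PRKAR1A pools from MII to 2-cell (adjusted p = 0.0543), of ADCY9 polysomes over transcriptome in MII (0.0535) and 2-cell embryos (0.0825) and of PRKAR1A over monosomes in MII (0.0639), it added PDE3A in MII (0.0466), and it changed no other call.

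Directions turned for these log2 values, given with the lowest and highest value over the fits that leave out a library. PRKAR2A, without 8-cell pool B, went from 1.38 to -9.13 in the pools from 2-cell to 8-cell (range to 2.38), from 2.91 to -7.60 for that step's polysome change minus transcriptome change (to 3.91), and from 0.35 to -10.84 against monosomes (to 2.07). GPR3 in the pools from 8-cell to morula went from -1.41 to 4.87 without 8-cell pool B and to -9.02 without morula pool B. Without morula pool B, polysomes against transcriptome in morulae went from 5.15 to -2.48 for GPR3 (range to 7.68), from 5.32 to -2.47 for GPR12 (to 7.83) and from 0.93 to -6.65 for ADCY9 (to 1.89). Without morula pool A, PDE4D went from 4.26 to -7.33 there (to 5.25) and from 9.14 to -2.41 in the pools from 8-cell to morula (to 11.51). With F7 among the polysomes, PDE3A went from -5.25 to 0.25 for the polysome change minus the transcriptome change from 2-cell to 8-cell. Several of these set a group at 0 counts, so their size depends on the prior count. Leaving out 1 pool leaves 1 sample in a group, which the fit assumes to vary like the other groups. Fractions with few counts limit the values from the 8-cell stage on. Scaling by library totals alone moved the median over all genes to -0.29 from GV to MII and 0.47 from MII to 2-cell in the transcriptome, from 0 with TMM, and DESeq2's size factors moved it from -0.26 to -0.50 for polysomes against transcriptome at the 8-cell stage. Neither turned the direction of a called member.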
